A study of Mus musculus with 2 samples.

Results

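The NF-kappaB genes described here were the genes of the Rel-family subunits Nfkb1, Nfkb2, Rel, Rela and Relb, of the inhibitors Nfkbia, Nfkbib and Nfkbie, and of the regulators Tnfaip3 and Bcl3. They were chosen by symbol, as probes annotated to 1 of these 10 genes alone. Of the 10 genes, 9 were measured, with 10 probes, among 17501 named genes in all; no probe carried Nfkb1 alone, and Nfkb1 was not analysed here. Nfkbie had 2 probes and each other gene had 1.

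The study compared RNA from mouse lymphocytes polarized in culture on 2 two-colour arrays. On the first, RNA of Th1-polarized cells carried Cy5 and RNA of Th0-polarized cells carried Cy3, and on the other RNA of Th17-polarized cells took the place of the Th1 RNA. Per the labels each RNA came from a TRP-1 mouse, a transgenic strain whose T cells recognise a melanocyte antigen; the sources used here give no age, sex, number of mice, polarizing agents, time in culture or purification of T cells. Th0 is the usual name for T cells activated without a lineage-directing mix of cytokines, interferon gamma marks Th1 cells, and interleukin 17 marks Th17 cells. There was 1 array per comparison with no dye swap, so values have no replicate and no test, and the number of arrays limits their precision. In RNA from mixed cells, fewer cells of a type and less RNA per cell cannot be told apart.

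NF-kappaB is a family of dimeric transcription factors held in the cytoplasm by inhibitors of the IkappaB type. Signals from the T cell receptor with Cd28, from TNF-family receptors or from interleukin 1 receptors activate the IKK kinases, which mark the inhibitors for destruction and let the dimers enter the nucleus. The genes of several inhibitors and subunits are themselves known targets of the pathway, a feedback that ends or sustains the response. In T cells the pathway is known for driving growth, survival and cytokine production.

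Values are log2 ratios of the 2 channels as deposited. The titles and dyes name the polarized population over Th0, but the table states no numerator. Il17a and Il22, the cytokine genes that define Th17 cells, lay at −5.37 and −5.79 on the Th17 array, and Ifng and Tbx21, which define Th1 cells, at −2.02 and −1.25 on the Th1 array. The direction is therefore not settled: under the titles a negative value stands for less RNA in the polarized population, and under the opposite order for more. Sides are given as deposited, and the negative side is the one on which each of these genes lay on the array of its own lineage. On the Th1 array Il22 read −2.53, farther from 0 than Ifng, and Il17a read 0.29. On the Th17 array Ifng read −0.83 and Tbx21 0.87. Gzmb, the granzyme B gene, was looked up for the side as well and lay positive on both arrays, at 0.47 (Th1) and 2.83 (Th17).

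On the Th17 array most of the NF-kappaB genes lay on the side of Il17a. Of the 9 genes, 8 lay below the median of all genes on that array, a count that no centring changes, and Nfkbia, Relb, Nfkb2, Nfkbie and Bcl3 lay lowest. Nfkbia, the gene of IkappaB alpha, was the only 1 of the 9 at least 2-fold apart, at −1.56 (2.96-fold). Of all named genes, 8.42% were at least 2-fold apart to either side on that array. On the Th1 array 6 of 9 lay below the median of all genes and 0 of 9 reached 2-fold, against 10.2% of all genes. Rel, the gene of c-Rel, lay above the median of all genes on both arrays.

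The promoters of these genes are shown first, because many of them hold the kappaB motif, the sequence that NF-kappaB dimers bind. RefSeq windows of the mouse build GRCm38.p6, from 250 bases before to 50 bases after a start of transcription, were matched by symbol for 8 of the 9 genes, without Relb, in 11 windows. The classical kappaB consensus was searched on both strands, and overlapping matches were joined. It was found in 6 of the 8 genes, against 1388 of 27025 genes with a window (5.14%) and 803 of 13883 such genes measured on the arrays (5.78%). Of single windows of this length, 1480 of 32851 (4.51%) held it. A looser form, with fewer fixed letters, was searched as well. That form was found in 7 of the 8 genes, against 63.4% of genes with a window measured on the arrays. All matches described here are to the classical consensus. A match is a description of the letters and not a measured binding site. Matches are alike by construction, since only sequences that fit the consensus were kept. They are set out by gene, each written 5′ to 3′ on the strand of its gene, in capitals.
Nfkbia, 29 bases before the start: GGAAATTCCC
Nfkb2, first start, 39 bases before it: GGGAATTCCCC
Nfkb2, first start, 11 bases before it: GGGGCTTTCC
Nfkb2, second start, 236 bases before it: GGAATGTCCC
Nfkb2, second start, 10 bases after it: GGGACTTTCC
Nfkbie, 106 bases before the start: GGGGGATTCC
Rel, 92 bases before the start: GGGAAATCCCC
Tnfaip3, first start, 125 bases before it: GGGACACCCC
Tnfaip3, first start, 12 bases before it: GGAAATCCCC
Bcl3, 2 bases after the start: GGGAAGTCCC

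**Figure D1:**
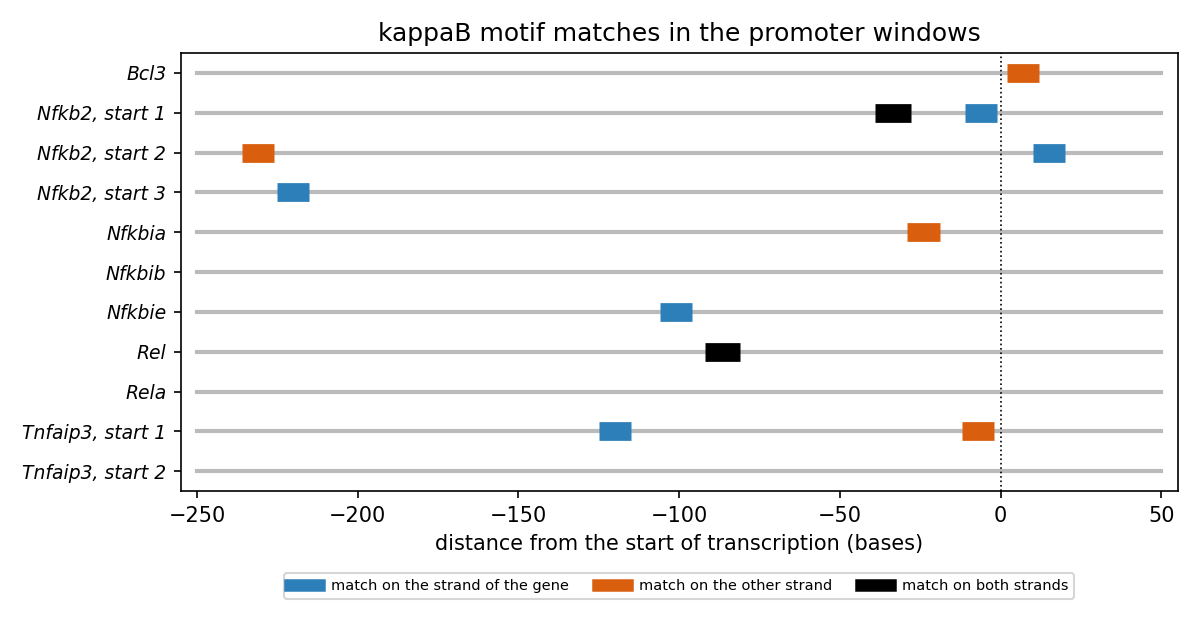
Matches to the kappaB motif (blocks) in the 11 promoter windows (grey lines) of 8 NF-kappaB genes, by distance in bases from the start of transcription; colours give the strand. Windows of Nfkbib, Rela and the second start of Tnfaip3 show none, and the match shared by starts 2 and 3 of Nfkb2 is drawn on both lines.

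The site 10 bases after the second start of Nfkb2 lies in the window of the remaining Nfkb2 start too, since these windows overlap, so 11 matches stand for 10 sites. Whole windows are printed for 3 genes with the matches in capitals. Nfkbia was the gene farthest from 0 and Nfkb2 held the most sites. Rel is shown as a gene with a site that lay slightly above the median of all genes. It lay above that median by 0.06 on the Th1 array and by 0.19 on the Th17 array.
Nfkbia (chr12:55492598-55492897, minus strand): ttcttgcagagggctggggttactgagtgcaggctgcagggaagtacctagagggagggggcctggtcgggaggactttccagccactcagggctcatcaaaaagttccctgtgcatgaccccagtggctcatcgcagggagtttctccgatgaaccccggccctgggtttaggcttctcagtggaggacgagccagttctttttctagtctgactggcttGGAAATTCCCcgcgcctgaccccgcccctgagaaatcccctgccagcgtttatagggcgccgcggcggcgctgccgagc
Nfkb2, first start (chr19:46304487-46304786, plus strand): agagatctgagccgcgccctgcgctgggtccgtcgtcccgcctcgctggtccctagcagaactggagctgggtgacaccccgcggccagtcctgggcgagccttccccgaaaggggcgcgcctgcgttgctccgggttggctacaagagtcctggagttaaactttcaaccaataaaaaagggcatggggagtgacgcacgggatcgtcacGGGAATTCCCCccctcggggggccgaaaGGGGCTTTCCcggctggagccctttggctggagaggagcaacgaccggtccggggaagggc
Rel (chr11:23770920-23771219, minus strand): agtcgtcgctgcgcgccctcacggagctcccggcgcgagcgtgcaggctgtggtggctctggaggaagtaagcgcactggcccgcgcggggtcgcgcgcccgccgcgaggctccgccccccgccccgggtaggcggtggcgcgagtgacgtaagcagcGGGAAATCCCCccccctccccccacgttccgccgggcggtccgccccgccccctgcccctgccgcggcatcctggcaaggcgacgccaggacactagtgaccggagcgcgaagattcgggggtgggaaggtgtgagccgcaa

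Among the inhibitors, Nfkbia lay at −0.77 on the Th1 array and at −1.56 on the Th17 array. It encodes IkappaB alpha, the inhibitor that is destroyed and made anew within each round of signalling. Its value was at percentile 11.1 of all named genes on the Th1 array and at percentile 2.31 on the Th17 array, where percentile 0 is the most negative value. It held rank 405 from the negative end of 17501 genes on the Th17 array. Under the titles its RNA would be lower in Th17 than in Th0 cells, and under the opposite order higher.

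Nfkbie encodes IkappaB epsilon, a slower inhibitor in the same feedback, and was the gene measured by 2 probes. Its probes read −0.60 and −0.25 on the Th1 array, and −0.97 and −0.66 on the Th17 array. Their mean was −0.42 (SD 0.25 between 2 probes) and −0.81 (SD 0.22), at percentiles 23.6 and 8.02. Both probes lay on the negative side of both arrays, and the difference between arrays was −0.37 for one and −0.41 for the other. This agreement within 1 gene covers probe error and not differences between samples.

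Nfkbib, the gene of IkappaB beta, an inhibitor less tied to this feedback, read −0.49 on the Th1 array and −0.17 on the Th17 array, at percentiles 20.3 and 36.2. Of the 3 inhibitor genes it lay nearest to 0 on the Th17 array. The log2 ratio of Nfkbia minus that of Nfkbib was −1.40 on the Th17 array and −0.29 on the Th1 array. For scale, the pooled SD between different probes of a gene, over 5871 genes, was 0.52 on the Th1 array and 0.50 on the Th17 array, which gives a gap between 2 single probes an SD of 0.74 and 0.71. That SD holds for a pair not picked by its values. On the Th17 array Nfkbia was the lowest and Nfkbib the highest of the 3 inhibitor genes. The SD therefore cannot judge their gap there, although the gap was wider, and no contrast between the arrays is drawn from it. The gap on the Th1 array lay within the SD. This SD covers probes on 1 array and not differences between samples.

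Of the subunits, Relb and Nfkb2 lay farthest from the middle of all genes. Relb, the subunit of the non-canonical branch, read −0.39 on the Th1 array and −0.90 on the Th17 array, at percentiles 25.6 and 6.76. Nfkb2, the precursor that is cut to give the usual partner of Relb, read −0.20 and −0.87, at percentiles 39.2 and 7.18. These partners lay 0.03 log2 units apart on the Th17 array, both near its negative end.

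Rela and Rel encode the subunits that carry most of the activating function of the canonical branch. Rela read −0.04 on the Th1 array and −0.33 on the Th17 array, at percentiles 53.9 and 23.9. Rel read −0.02 on the Th1 array and 0.15 on the Th17 array, at percentiles 55.8 and 70.3. Rel was the 1 gene of the 9 on the positive side of the Th17 array, and on the Th1 array it and Rela both lay just above the median of all genes. Relb minus Rela was −0.56 and Nfkb2 minus Rela −0.54 on the Th17 array, both within the SD of 0.71 for a gap between 2 probes.

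Bcl3 encodes an IkappaB-like nuclear protein that works with dimers of the Nfkb1 and Nfkb2 products rather than holding them in the cytoplasm. It read −0.26 on the Th1 array and −0.70 on the Th17 array, at percentiles 33.9 and 10.05. Tnfaip3 encodes a ubiquitin-editing enzyme that shuts off signalling upstream of IKK. Its values were 0.19 on the Th1 array and −0.37 on the Th17 array, at percentiles 73.3 and 22.0. Tnfaip3 was the 1 gene of the 9 above 0 on the Th1 array, although its sign there turned with centring on control genes, to −0.09.

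**Figure D2:**
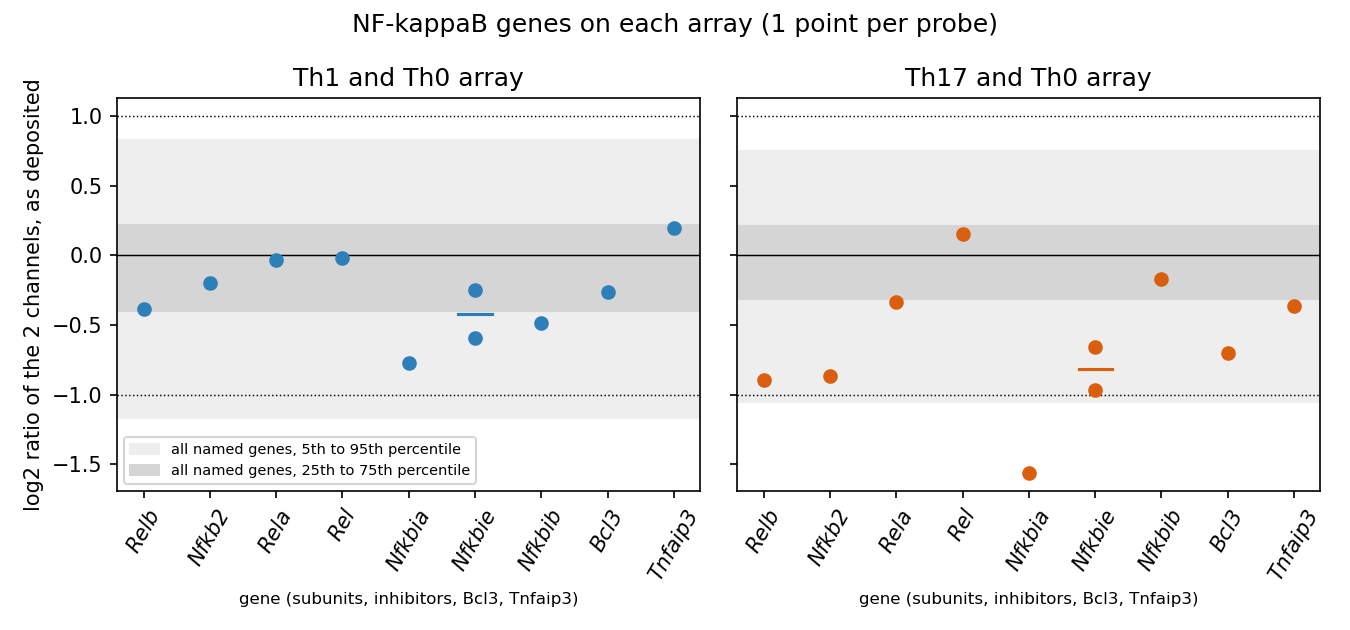
Deposited log2 ratio of each NF-kappaB gene on the Th1 and Th0 array (left) and the Th17 and Th0 array (right), 1 point per probe, with a bar at the mean of the 2 Nfkbie probes; shaded bands give all named genes and dotted lines mark 2-fold. As deposited, only Nfkbia on the Th17 array passes 2-fold, at −1.56, and Rel there is the 1 point above 0. Centring the Th17 array on its most repeated value would leave 5 of 9 genes below 0, against 18.7% of all genes.

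In order from the negative end, the Th17 array gave Nfkbia, Relb, Nfkb2, Nfkbie, Bcl3, Tnfaip3, Rela, Nfkbib and Rel. The widest gap between neighbours there was 0.67, between Nfkbia and Relb. On the Th1 array the order was Nfkbia, Nfkbib, Nfkbie, Relb, Bcl3, Nfkb2, Rela, Rel and Tnfaip3. Neighbours in such an order are picked by their values, so the SD for a gap between 2 probes cannot judge these gaps. Nfkbia was lowest on both arrays.

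As a list, the 9 genes had a median of −0.70 on the Th17 array, where all named genes had one of −0.03. The Th1 array gave −0.26 for the list and −0.08 for all genes. As deposited 8 of 9 lay below 0 on each array, against 53.7% of all genes on the Th17 array and 57.4% on the Th1 array. Counts below 0 depend on centring. With each array set to its most repeated value they were 5 of 9 on the Th17 array, against 18.7% of all genes. On the Th1 array they were then 0 of 9, against 9.45% of all genes. That setting adds 0.43 to all values of the Th17 array and 0.85 to all of the Th1 array, so the median of the 9 genes became −0.27 and 0.59, and those of all lists below lay above 0, except T cell markers on the Th17 array. As deposited, at 1.5-fold to the negative side, 5 of 9 passed on the Th17 array (Nfkbia, Relb, Nfkb2, Nfkbie and Bcl3), against 13.0% of all genes.

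The value on the Th17 array minus that on the Th1 array sets the 2 polarized populations against each other, if both arrays held the same Th0 RNA and the same order of channels, which the labels do not state. Nfkbia differed by −0.79, Nfkb2 by −0.67, Tnfaip3 by −0.56, Relb by −0.51, Bcl3 by −0.44, Nfkbie by −0.39 and Rela by −0.30. Rel and Nfkbib lay on the other side, at 0.17 and 0.32, but turned to −0.25 and −0.10 with each array set to its most repeated value. Rela turned to 0.0087 with centring on control genes. Of the 9 genes 7 lay below 0, against 46.1% of all genes, and the same 7 lay below the median of all genes in this difference. Those below 0 became 9 of 9 (83.2% of all genes) with the most repeated value as centre and 6 of 9 (20.3%) with control genes. At least 2-fold apart were 0 of 9, where 8.14% of all genes were. The list had a median of −0.44 and all genes one of 0.04; these were −0.86 and −0.38 with the most repeated value as centre, and −0.13 and 0.34 with control genes. Both comparisons use Th0 RNA, so this difference and the Th17 array are not independent.

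Nfkbia and Nfkb2 lay at percentiles 5.70 and 7.52 of this difference and Tnfaip3 at 9.93. Nfkbib was highest of the 9 at percentile 77.2. The value of Nfkbia minus that of Nfkbib, the lowest and the highest of the 9, was −1.11. The SD of 0.74 for a gap between 2 single probes holds for a pair not picked by its values. It therefore cannot judge this gap.

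**Figure D3:**
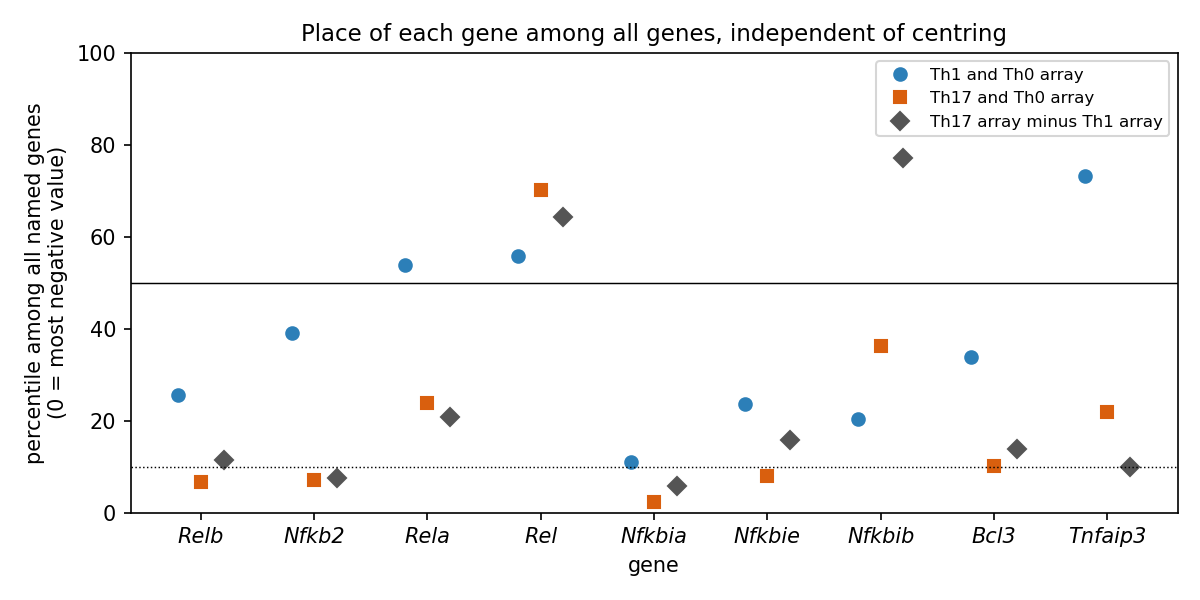
Percentile of each NF-kappaB gene among 17501 named genes, for both arrays and the difference between them, where 0 is the most negative value; adding a constant to an array does not move these places. On the Th17 array (squares) Nfkbia, Relb, Nfkb2 and Nfkbie lie between 2.31 and 8.02, and Rel is at 70.3.

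Other negative regulators did not share one side. Of the 14 measured of 18 listed, 1 gene was at least 2-fold negative and 1 at least 2-fold positive on the Th17 array, and 0 were on the Th1 array. Among all genes, 8.42% were at least 2-fold apart to either side on the Th17 array and 10.2% on the Th1 array. The median was −0.09 on the Th17 array and −0.16 on the Th1 array. Nfkbiz, an IkappaB-like nuclear protein related to Bcl3, read −0.60 on the Th1 array and 1.19 on the Th17 array, and Bcl3 minus Nfkbiz was −1.89 on the latter. Tnip2, which binds the Tnfaip3 protein, read −0.37 and −1.16.

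The IKK complex and its upstream kinases and adaptors stayed near the middle of all genes. Of 30 listed genes 24 were measured, with a median of −0.07 on the Th17 array and 0.01 on the Th1 array. On the Th17 array 0 of 24 were at least 2-fold apart, against 8.42% of all genes, and on the Th1 array 1 was, against 10.2%. That gene was Map3k8, a kinase that the Nfkb1 precursor protein binds and holds, at −1.63 on the Th1 array and −0.61 on the Th17 array. Traf5, an adaptor of TNF-family receptors, read 0.41 on the Th1 array and −0.74 on the Th17 array.

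Receptors that feed the pathway were measured for 17 of 18 listed genes and had medians of −0.18 on the Th1 array and −0.42 on the Th17 array. On the Th17 array 4 were at least 2-fold negative and 1 at least 2-fold positive, where 8.42% of all genes were 2-fold apart to either side. Il1r1, the interleukin 1 receptor, read −2.17 (SD 1.45 between 2 probes) on the Th17 array, and Tnfrsf25, the receptor of the ligand TL1A, −1.95 (SD 1.29). Their probes disagreed widely, as did those of Tnfrsf9 at 1.10 (SD 2.26). Tnfrsf4, the costimulatory receptor OX40, read −1.06 there with 1 probe. On the Th1 array 2 were at least 2-fold negative, Il18r1 at −2.03 and Cd28 at −1.39, and 1 positive, Tlr2 at 1.23. Among all genes 10.2% were at least 2-fold apart to either side there.

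Known targets of NF-kappaB lay on both sides. All 32 listed targets were measured, with medians of −0.27 on the Th1 array and −0.40 on the Th17 array. On the Th17 array 9 were at least 2-fold negative and 1 at least 2-fold positive, and on the Th1 array 2 were negative and 3 positive. Of all 17501 named genes, 966 were negative and 508 positive by that much on the Th17 array. On the Th1 array 1211 and 573 were. Ccl20, a chemokine gene typical of Th17 cells, read −6.48 on the Th17 array, Il2 −2.50, Il1b −2.01 and Lta −1.82. Ltb, the gene of lymphotoxin beta, was the 1 target at least 2-fold negative on both arrays, at −1.71 and −1.67. Ccl3 read 1.90 on the Th1 array and 1.17 on the Th17 array, and was at least 2-fold positive on both. Il6 read 2.47 on the Th1 array and Csf2 −2.97.

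**Figure D4:**
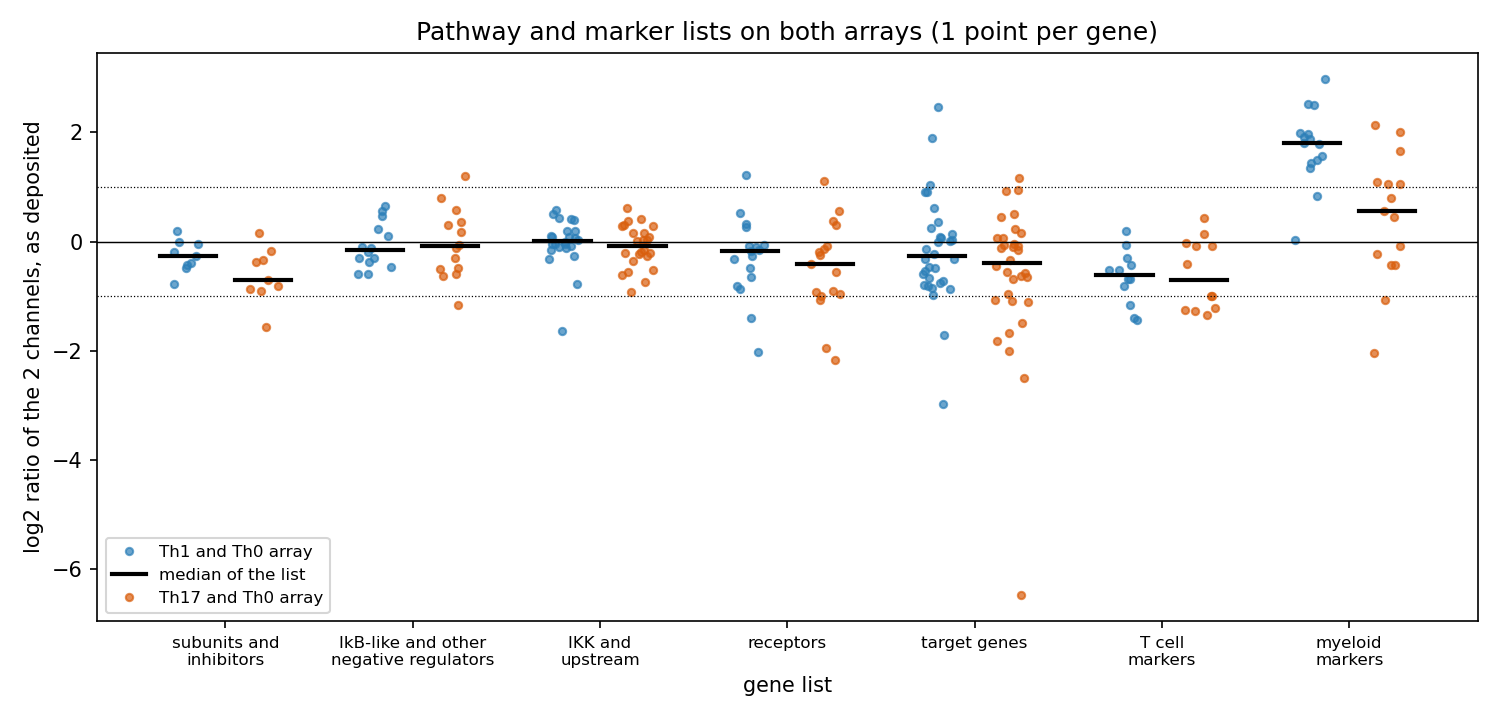
Deposited log2 ratio of every measured gene of 5 pathway groups and 2 marker lists on both arrays, 1 point per gene, with bars at the medians; dotted lines mark 2-fold. The 9 subunits and inhibitors centre on −0.70 on the Th17 array, where the IKK and upstream genes centre on −0.07 and the T cell markers on −0.70; another centring moves all points of an array together.

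As deposited, the medians of T cell and myeloid markers lay away from 0 as well. T cell markers, of which Cd28 is also listed as a receptor, had medians of −0.61 on the Th1 array and −0.70 on the Th17 array over 12 measured of 13 (0.24 and −0.28 with each array set to its most repeated value). As deposited 11 and 10 of them lay below 0, the side of most NF-kappaB genes, against 57.4% and 53.7% of all genes. Their range on the Th17 array was −1.34 to 0.43. Myeloid markers lay opposite on the Th1 array, with 15 of 15 above 0 (0.03 to 2.98, median 1.80). On the Th17 array they lay on both sides, with 9 of 15 above 0 (−2.04 to 2.14, median 0.56). B cell markers had medians of −0.14 and 0.14 over 9, and widely expressed control genes medians of 0.28 and −0.02 over 13. The part of such differences in the values of the NF-kappaB genes was not tested. The table holds ratios and no levels, so the labelled cell type could not be set against marker levels.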

How the data were processed

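RNA was measured on 2 two-colour arrays (500 ng of total RNA per labelling, per the labels). The authors deposited 1 log2 ratio per probe and array for 36547 probes. The log2 scale was read from the values, since repeated values are spaced by log2 of small whole-number ratios. Scanner, background correction, normalization, centring and the order of the channels are unknown here. Medians over probes were −0.11 (Th1 array) and −0.05 (Th17 array).

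Probes were named from the platform annotation, which can be old, through gene numbers of a RefSeq list (GRCm38.p6): 26926 probes had 1 gene (26774 matched), 203 several and 9418 none. Probes were averaged per gene (Python 3.11.15, pandas 2.3.3), and genes called at 2-fold. With 1 array per comparison no test was made. The pooled SD between probes left out 15 genes with more than 20 probes. A search for ratios of whole-number signals with a weaker channel of at most 5 units (tolerance 0.0001), tested on simulated data, matched 0 of the 10 NF-kappaB probes, against 2.67% (Th1 array) and 1.83% (Th17 array) of all one-gene probes. The NF-kappaB genes and all lists were chosen with earlier results of these data known. All 9 genes are named, and of each other list at most the 4 farthest genes past 2-fold per comparison. Alternatives were 3 centrings, 3 treatments of probes, a 1.5-fold threshold and a demand that every probe pass. The kappaB search was added after the values were seen.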

Additional observations from a re-analysis of the deposited data

Results flagged for a closer look

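Of the genes named here, 8 lay on opposite sides of the 2 arrays as deposited, each time by more than the pooled SD between probes. The difference was not tested, since each comparison had 1 array. Genes named from the other lists had been picked for passing 2-fold, and the share of all genes on opposite sides was not counted. Sides also depend on centring. With each array set to its most repeated value the Th1 array rises by 0.85, which puts Nfkbiz, at −0.60 there, above 0 on both arrays. As deposited, none of the 9 subunit and inhibitor genes lay on opposite sides by more than that SD. The difference, Th17 array minus Th1 array, was 1.79 for Nfkbiz, −2.15 for the receptor gene Tlr2, −2.62 for the cytokine gene Il1b and −2.53 for the chemokine gene Cxcl2. It was −2.88 for the monocyte receptor gene Cd14, −2.87 for the oxidase gene Cybb and −1.87 for the transferrin receptor gene Tfrc. These 3 came from the marker and control lists. It was 2.12 for Tbx21, the Th1 transcription factor gene, which read −1.25 on the Th1 array and 0.87 on the Th17 array.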

How the results depend on the processing

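No alternative changed the side of the 1 value past 2-fold, Nfkbia on the Th17 array, which lay between −1.54 and −1.14 under the 3 centrings. Setting each array to its most repeated value raises the Th1 array by 0.85 and the Th17 array by 0.43 for every gene. It moved the median of the 9 genes on the Th1 array to 0.59, put 1 gene there past 2-fold (Tnfaip3 at 1.04) and 2 in the difference (Nfkbia and Nfkb2), where 31.5% of all genes passed 2-fold on the Th1 array and 11.6% in the difference. Centring on control genes lowers the Th1 array by 0.28 and put 1 gene past 2-fold there (Nfkbia at −1.06), as 14.2% of all genes did. A 1.5-fold threshold called 1 of 9 genes on the Th1 array, 5 on the Th17 array and 2 in the difference, against 26.0%, 20.9% and 20.5% of all genes. Of the 27 single values (9 genes on 2 arrays and in the difference), 9 moved by more than the pooled SD between probes, each on the Th1 array set to its most repeated value. A centring shifts every gene of an array alike, so these 9 values are 1 shift of 0.85 against an SD of 0.52, and not separate checks. Treating the probes of a gene differently moved none by more than the SD, since 8 of the 9 genes had 1 probe. With 1 array per comparison, no alternative bears on differences between samples.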

Other observations

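Genes with a kappaB match in the promoter window had medians close to those of other genes; no test was made. Over the 797 such genes that are no subunit or inhibitor named here, the median log2 ratio was −0.07 on the Th1 array and −0.05 on the Th17 array. Over the 13080 genes with no match in the window the medians were −0.06 and −0.03. At least 2-fold negative on the Th17 array were 6.15% of the former and 5.41% of the latter, and at least 2-fold positive 3.64% and 2.81%.

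In the pathway groups, a match was found in 11 of 27 known targets (40.7%) and in 4 of 9 IkappaB-like proteins and other negative regulators (44.4%), namely Nfkbid, Cyld, Tnip1 and Tax1bp1. The IKK complex with its upstream kinases and adaptors had 2 of 18 (11.1%), and the receptors 3 of 14 (21.4%), Tnfrsf9, Il1r1 and Tlr2. Widely expressed control genes had 2 of 11 (18.2%), B2m and Eef1a1, and myeloid markers 2 of 11 (18.2%), C1qc and Fcgr3. T cell markers had 0 of 7 and B cell markers 0 of 5. Of all array genes with a window 5.78% held one, and no list was tested against that share. On the Th17 array 7 of the 11 targets with a match lay below 0, with a median of −0.12, and Ccl20, at −6.48, was among them. Of all 32 targets 23 lay below 0 there, and of all genes 53.7%.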
